A study of Homo sapiens with 10 samples.

Results

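The transcripts of 10 transcription factor genes of the endothelial lineage were compared between EA.hy926 and HMEC-1, the pair of immortalized human endothelial cell lines of this RNA-seq series. The genes were chosen by name as ETS factors (ERG, FLI1, ETS1), SOXF factors (SOX17, SOX18), GATA2, TAL1, KLF2 and the venous and lymphatic factors NR2F2 and PROX1, and were found by Ensembl identifier among the 60448 genes of the count table. EA.hy926 is a hybrid of umbilical vein endothelial cells and the A549 lung carcinoma line. HMEC-1 is a dermal microvascular line immortalized with the SV40 large T antigen. Both are labelled wild type and were untreated, with 5 libraries each from independent cultures grown to a confluent monolayer. EA.hy926 was kept with 5% serum and HMEC-1 with 10% serum plus EGF (10 ng/mL) and hydrocortisone (1 µg/mL), so line and medium cannot be told apart. Each line is a single line and stands for no other endothelial cells, and the p-values measure only the spread between these libraries.

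Endothelial identity is held by a small network of DNA-binding proteins that act together on the same regulatory regions. ETS factors such as ERG and FLI1 bind near most genes that are specific to endothelium, including those of the adherens junction, and SOXF factors, GATA2 and TAL1 bind beside them. KLF2 is a zinc finger factor that laminar flow switches on through the kinase cascade of MAP3K3, MAP2K5 and MAPK7 and MEF2 factors. NR2F2, also called COUP-TFII, is associated with venous endothelium, and PROX1 directs lymphatic endothelial fate, in which SOX18 and NR2F2 act upstream of it.

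Promoter sequence is shown for 3 of the factors because it lets the DNA words that these families read be seen in their own genes. RefSeq sequences on GRCh38.p14 were matched for 5 of the 10 genes (ERG, GATA2, KLF2, NR2F2 and TAL1, with 11 start windows among them) and not for FLI1, ETS1, SOX17, SOX18 and PROX1. Each window of 250 bases before the start and 50 after it was searched on both strands for the ETS word CCGGAA, the SOX word AACAAT, the GATA word AGATAA, the E-box CANNTG of TAL1 and its partners, the KLF word CACCC and the MEF2 box. Of all 35116 promoter windows in the table, 17.2% held the ETS word, 10.1% the SOX word, 10.3% the GATA word, 68.7% the E-box, 59.9% the KLF word and 2.99% the MEF2 box. The 250 bases before a start of TAL1 (minus strand, chr1:47232336-47232585), KLF2 (plus strand, chr19:16324576-16324825) and ERG (minus strand, chr21:38498505-38498754) follow, read 5′ to 3′ along the gene. Capitals mark the reverse strand of the GATA word in TAL1, the MEF2 box in KLF2, and in ERG first the reverse strand of the SOX word and then that of the GATA word.
TAL1: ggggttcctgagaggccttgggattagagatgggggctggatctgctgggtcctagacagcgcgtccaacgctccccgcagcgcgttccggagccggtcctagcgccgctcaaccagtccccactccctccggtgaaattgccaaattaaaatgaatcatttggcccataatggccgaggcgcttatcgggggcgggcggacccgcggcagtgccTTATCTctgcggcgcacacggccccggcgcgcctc
KLF2: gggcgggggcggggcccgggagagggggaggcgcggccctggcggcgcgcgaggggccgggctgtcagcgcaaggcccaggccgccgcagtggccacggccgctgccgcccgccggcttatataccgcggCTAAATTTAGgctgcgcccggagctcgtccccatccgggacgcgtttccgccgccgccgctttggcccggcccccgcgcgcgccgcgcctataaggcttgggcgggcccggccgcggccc
ERG: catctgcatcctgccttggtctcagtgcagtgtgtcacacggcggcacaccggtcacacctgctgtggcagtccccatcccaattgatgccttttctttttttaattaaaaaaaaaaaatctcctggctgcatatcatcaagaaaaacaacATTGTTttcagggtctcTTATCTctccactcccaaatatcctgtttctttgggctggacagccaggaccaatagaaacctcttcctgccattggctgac
The marked GATA word of TAL1 began 35 bases before the start, the MEF2 box of KLF2 120 bases before it, and the SOX and GATA words of ERG 99 and 82 bases before it, and no marked word overlapped another. Left in lower case are an ETS word and an E-box in the TAL1 stretch and 3 E-boxes in that of ERG. The KLF2 window held none of the other words searched, and 97.9% of all windows had a lower GC content than its 80.7%. These are matches of letters only, and the windows shown for TAL1 and ERG were picked for holding them.

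The 10 libraries held 33391640 to 43877224 counts, so 3 counts, taken as the floor below which a level is not read, make 0.0651 to 0.0904 CPM, the unit of counts scaled to library size, in a library. The lines were compared with the quasi-likelihood test of edgeR, and a gene was called when its Benjamini-Hochberg adjusted p over all 16310 genes tested was under 0.05 and its log2 fold change (log2FC, EA.hy926 over HMEC-1) was over 1 in size. By this rule 35.5% of all genes tested were called, 19.1% higher in EA.hy926 and 16.4% lower. Of a list of 20 endothelial markers all were tested and 14 were called, 11 of them higher in EA.hy926 and 3 lower (EMCN, CLDN5 and MCAM), and CDH5, the VE-cadherin gene, was at 1270 ± 63.1 CPM (SD, n = 5) in EA.hy926 but 441 ± 5.39 CPM in HMEC-1. Of 20 epithelial markers 9 were tested and 6 called, 2 of them higher in EA.hy926 (KRT8 and EPCAM) and 4 lower (KRT19, CLDN7, GRHL1 and CLDN4), with summed levels of 1280 to 1390 CPM in EA.hy926 but 435 to 498 CPM in HMEC-1. KRT8 and KRT7 made up most of the sum in EA.hy926, whereas CDH1, the E-cadherin gene, had no count in EA.hy926 and at most 1 in an HMEC-1 library. Of 12 lung and endoderm genes only FOXA1 was tested, and NKX2-1 and SFTPA1 had no count in any library. Of 12 fibroblast and mural markers 8 were tested and 7 called, and DCN and LUM had no count. The 5 lower in EA.hy926 included COL1A1, at 0.318 ± 0.0977 CPM in EA.hy926 but 358 ± 9.29 CPM in HMEC-1, COL1A2 and CSPG4. The mural genes RGS5, at 430 ± 23.5 against 5.05 ± 0.221 CPM (log2FC 6.41), and ACTA2, at 6.26 ± 0.613 against 0.973 ± 0.174 CPM (log2FC 2.68), were higher in EA.hy926. Of 12 haematopoietic markers only CD14 was tested, and the list summed to at most 0.647 CPM in EA.hy926 but 1.32 CPM in HMEC-1. The part of these lists in the results on the 10 factors was not tested.

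All 10 factors passed the filter on low counts and 7 were called, where 35.5% of all genes tested were called. PROX1, SOX18, NR2F2 and ERG were higher in EA.hy926 (19.1% of all genes tested were called in this direction) and TAL1, SOX17 and GATA2 were lower (16.4%). The adjusted p alone was under 0.05 for all 10, as for 85.8% of all genes tested. The CPM values of the lines did not overlap for any of the 10, as for 77.4% of all genes tested. The median log2FC of the 10 factors was 0.76 and that of all genes tested -0.01. Within a line the replicates lay close together, and the coefficient of variation of the CPM values was 1.71% to 12.7% over the 9 factors above the floor in EA.hy926 but 1.95% to 6.32% over the 9 in HMEC-1.

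**Figure D1:**
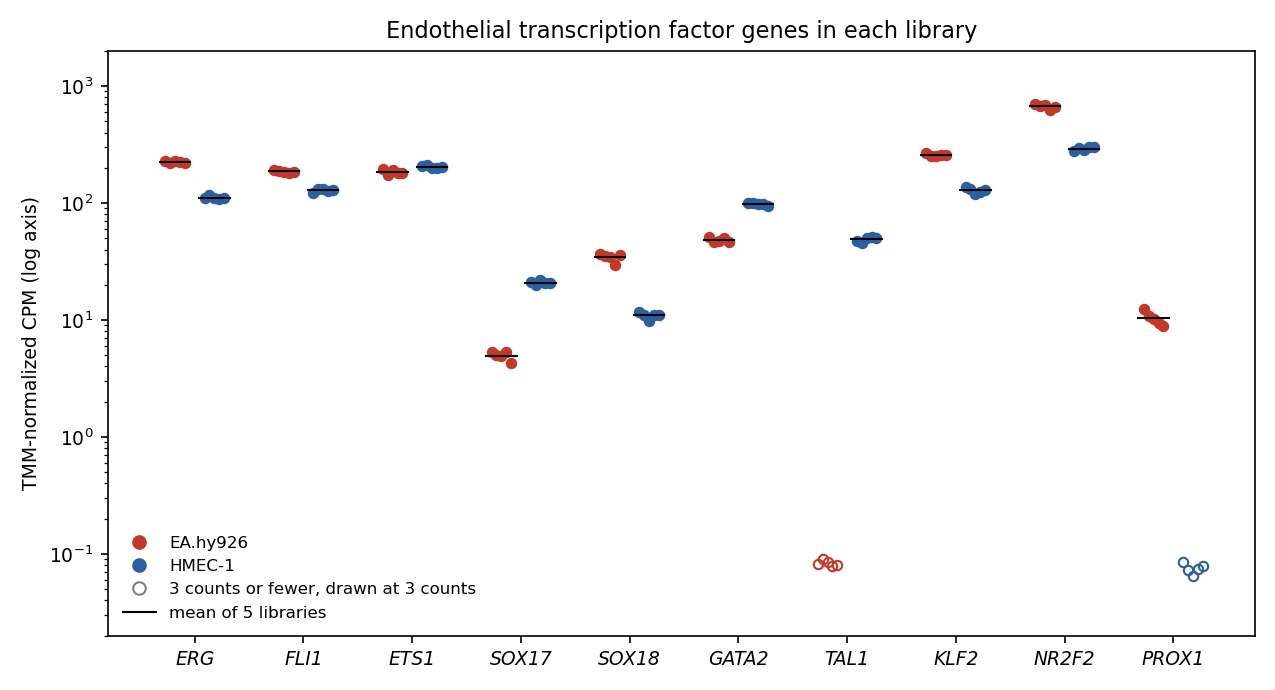
Level of the 10 transcription factor genes in each of the 5 EA.hy926 and 5 HMEC-1 libraries, in CPM scaled by TMM factors on a log axis, with the mean as a line and open points at 3 counts for libraries with 3 counts or fewer. TAL1 in EA.hy926 and PROX1 in HMEC-1 lie at the floor, and for each of the 10 genes the points of the lines do not overlap.

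The ETS factors were expressed in both lines, and only ERG passed both thresholds. ERG, which endothelial cells express throughout life and which maintains junction genes, lies on chromosome 21 (GRCh38 chr21:38380027-38661780, minus strand). Its levels were 227, 219, 229, 223 and 221 CPM in EA.hy926 replicates 1 to 5 and 110, 116, 111, 109 and 110 CPM in those of HMEC-1. Every EA.hy926 library was well above every HMEC-1 library, with a log2FC of 1.01 (SE 0.025, adjusted p = 1.7e-19, edgeR). That value sat on the threshold: scaled by library totals alone it was 0.87 and no longer called, and the call was also lost without HMEC-1 replicate 1, 3, 4 or 5, with a lowest value of 0.99.

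FLI1, a close relative of ERG that is shared with blood cells, lies 99 kb from ETS1 on chromosome 11 (chr11:128686535-128813267, plus strand). Its levels were 191, 188, 185, 181 and 185 CPM in EA.hy926 but 122, 132, 132, 126 and 130 CPM in HMEC-1. The lines were separate, but the log2FC of 0.53 (SE 0.027, adjusted p = 5.6e-14) was below the fold threshold. ETS1, a factor of angiogenic endothelium (chr11:128458761-128587558, minus strand), went the other way by a small margin. Its levels were 194, 175, 192, 179 and 182 CPM in EA.hy926 but 205, 210, 200, 198 and 202 CPM in HMEC-1. The highest EA.hy926 library was just under the lowest HMEC-1 library, and the log2FC was -0.14 (SE 0.029, adjusted p = 2.1e-04).

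Since the ratio of a pair of genes within a library does not depend on how libraries are scaled, levels per kilobase of exon were also compared within libraries. The ratio of ERG to FLI1 was 1.28 ± 0.0327 (SD, n = 5) in EA.hy926 but 0.919 ± 0.0256 in HMEC-1. The ratio of ETS1 to ERG was 0.873 ± 0.0249 in EA.hy926 but 1.93 ± 0.0219 in HMEC-1. ERG was thus the first of the 3 ETS factors per exon length in EA.hy926, at 37.6% of their sum, and ETS1 in HMEC-1, at 48.1%.

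The SOXF factors moved in opposite directions. SOX17, a factor of arterial endothelium (chr8:54457935-54460892, plus strand), was at 5.33, 5.00, 4.87, 5.28 and 4.31 CPM in EA.hy926 but at 21.2, 19.7, 22.0, 20.7 and 20.8 CPM in HMEC-1. It was low in all EA.hy926 libraries, with a log2FC of -2.07 (SE 0.060, adjusted p = 3.0e-18). SOX18, a factor of developing blood and lymph vessels (chr20:64047582-64049639, minus strand), was at 36.8, 35.2, 34.4, 29.5 and 35.7 CPM in EA.hy926 but at 11.7, 11.1, 9.78, 11.0 and 11.1 CPM in HMEC-1. It was high in all EA.hy926 libraries, with a log2FC of 1.65 (SE 0.059, adjusted p = 1.3e-16). SOX7, the remaining SOXF gene, was higher in EA.hy926 as well, at 116 ± 5.96 against 15.6 ± 1.06 CPM (log2FC 2.90, SE 0.045, adjusted p = 5.2e-23). However, 39.4% of its exonic bases lie in exons of other genes, and how reads there were counted is not known.

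The makeup of the SOXF group per exon length therefore differed. In EA.hy926, SOX7 made up 63.7% ± 1.67, SOX18 32.5% ± 1.95 and SOX17 3.73% ± 0.315 of the group's summed level per kilobase (SD, n = 5). In HMEC-1, SOX17 made up 45.4% ± 2.14, SOX18 29.9% ± 1.47 and SOX7 24.7% ± 1.28. All these shares carry the limit on the SOX7 count. The ratio of SOX18 to SOX17 was 7.04 to 10.4 in the EA.hy926 libraries and 0.561 to 0.706 in the HMEC-1 libraries.

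GATA2 and TAL1, which bind DNA side by side in endothelial and blood cells, were both lower in EA.hy926. GATA2, a zinc finger factor (chr3:128479427-128493201, minus strand), was at 50.7, 46.5, 46.9, 49.8 and 46.4 CPM in EA.hy926 but at 99.7, 99.8, 97.9, 98.3 and 95.1 CPM in HMEC-1. The libraries were separate by line, with a log2FC of -1.03 (SE 0.031, adjusted p = 5.2e-18). Tested against a fold of more than the threshold itself (glmTreat of edgeR), GATA2 was not called (adjusted p = 0.19).

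TAL1, a basic helix-loop-helix factor that starts blood and endothelial development (chr1:47216290-47232225, minus strand), was the factor that separated the lines most. It had 0, 0, 0, 1 and 0 counts in EA.hy926 but 1663, 1859, 2318, 2069 and 1920 counts in HMEC-1, where its level was 48.9 ± 2.26 CPM (adjusted p = 3.9e-25). The sum of 1 count against 9829 makes a ratio of 8842. Its exact 95% interval of 1587 to 349264 covers counting error only. With EA.hy926 set to the highest CPM that 3 counts make in any of its libraries, the ratio is 540. At this depth TAL1 was not detectable above the floor in EA.hy926, and in bulk RNA fewer cells with a transcript cannot be told from less RNA per cell. STIL, whose gene span ends 17.9 kb from that of TAL1 and which was looked at after its values were seen, was at 45.7 ± 1.05 CPM in EA.hy926 but 90.0 ± 1.40 CPM in HMEC-1 (log2FC -0.98, SE 0.027, adjusted p = 1.5e-18).

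Of a list of 13 genes that holds members of the TAL1 complex, relatives of TAL1 and factors that act with it, 10 were tested, with 3 called higher in EA.hy926 and 1 lower. These calls were 40% of the genes tested on the list, near the 35.5% of all genes tested. LMO2, the bridge between TAL1 and GATA factors, was at 84.0 ± 7.03 CPM in EA.hy926 but 4.30 ± 0.256 CPM in HMEC-1 (log2FC 4.29, SE 0.062, adjusted p = 1.8e-23). LYL1, the nearest relative of TAL1, was at 42.3 ± 1.65 and 15.9 ± 0.789 CPM (log2FC 1.41, adjusted p = 5.5e-18). Of the summed level of TAL1 and LYL1 per kilobase, TAL1 made up 62.7% ± 1.16 in HMEC-1 and at most 0.0343% in an EA.hy926 library.

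HHEX, a homeobox gene of early endothelium, was higher in EA.hy926 (log2FC 1.68, adjusted p = 1.9e-19). LDB2 had no count in EA.hy926 but 23 to 39 counts in HMEC-1, at least 8.70-fold lower against 3 counts per library. Its relative LDB1, the usual partner of LMO2, had a log2FC of 0.31, below the fold threshold. The E proteins with which TAL1 pairs differed little, with log2FC of 0.29 for TCF3, 0.41 for TCF4 and 0.00 for TCF12 (adjusted p = 0.98 for the last). RUNX1 had a log2FC of -0.79 and CBFA2T3 at most 1 count in a library.

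KLF2, on chromosome 19 (chr19:16324826-16328685, plus strand), was at 265, 250, 251, 255 and 255 CPM in EA.hy926 but at 136, 131, 120, 124 and 130 CPM in HMEC-1. Every EA.hy926 library was far above every HMEC-1 library, and the log2FC of 0.995 (SE 0.031, 95% interval 0.93 to 1.06, adjusted p = 1.0e-17) fell just short of the fold threshold. ERG, at 1.008, lay just inside it. KLF2 was called without EA.hy926 replicate 2, 3, 4 or 5 and without HMEC-1 replicate 1, with a highest value of 1.01.

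A list of 11 genes held upstream and target genes of KLF2 and its relative KLF4, and all were tested. Of these, 5 were called higher and 1, KLF4, lower in EA.hy926 (54.5%, beside 35.5% of all genes tested). Among the kinases, MAP3K3 had a log2FC of 0.13, MAP2K5 of 0.51 and MAPK7 of -0.48, none past the fold threshold. MEF2C was higher in EA.hy926 at 43.5 ± 3.64 against 7.82 ± 0.514 CPM (log2FC 2.47, SE 0.060, adjusted p = 1.3e-19), while MEF2A and MEF2D had log2FC of 0.03 and 0.00 (adjusted p = 0.35 and 0.93). NOS3, the endothelial nitric oxide synthase that KLF2 induces, was at 350 ± 6.62 against 24.7 ± 1.30 CPM (log2FC 3.83, SE 0.033, adjusted p = 5.4e-27).

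THBD and S1PR1, further targets, were both at a log2FC of 1.03, and EDN1, which KLF2 represses, was at 1.00 and called by a margin in the third decimal (1.004). The call of EDN1 was lost without HMEC-1 replicate 1, 3, 4 or 5, with a lowest value of 0.94, and that of S1PR1 without EA.hy926 replicate 1 or HMEC-1 replicate 5, with a lowest value of 0.99. Both calls were also lost with glmTreat and with library totals alone (0.87 for EDN1 and 0.89 for S1PR1), and that of EDN1 without the filter. The call of THBD was lost with glmTreat, with library totals and without HMEC-1 replicate 5. KLF4, the nearest relative of KLF2, ran against it. It was at 3.05 ± 0.613 CPM in EA.hy926 but 28.1 ± 0.945 CPM in HMEC-1 (log2FC -3.20, SE 0.083, adjusted p = 3.5e-19), and the ratio of KLF2 to KLF4 per exon length was 95.8 to 155 in EA.hy926 but 5.58 to 6.33 in HMEC-1.

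**Figure D2:**
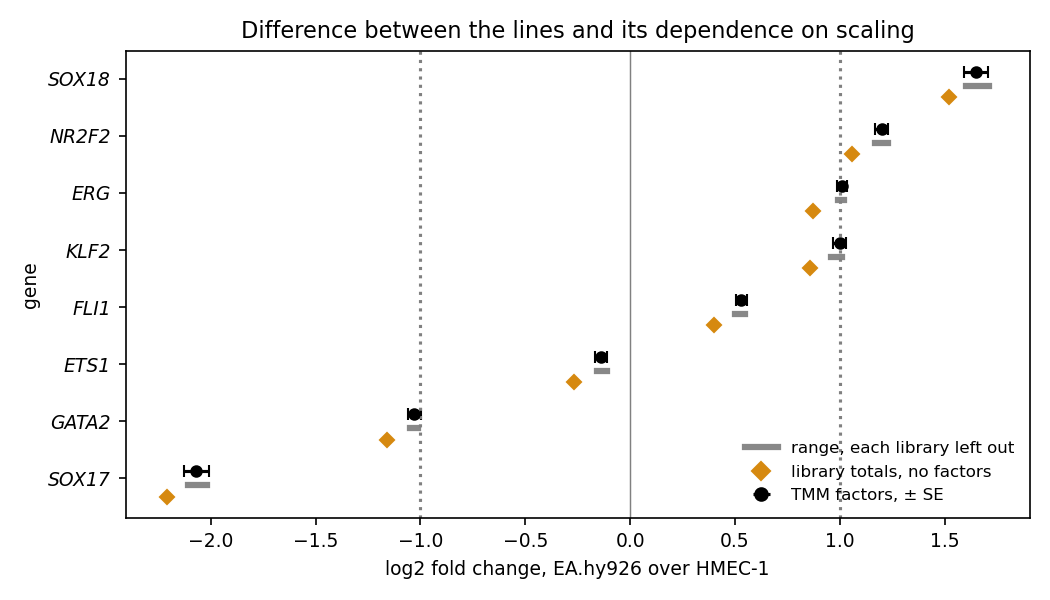
Log2 fold change of EA.hy926 over HMEC-1 for the 8 factors with more than 3 counts per library in both lines, with the SE from edgeR under TMM factors (black), the range when each library in turn was left out (grey) and the value scaled by library totals alone (orange). Dotted lines mark the fold threshold of 1, near which ERG, KLF2 and GATA2 lie at 1.01, 1.00 and -1.03, and library totals move each value lower.

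NR2F2 and PROX1 were both higher in EA.hy926. NR2F2, a nuclear receptor (chr15:96325938-96340263, plus strand), was at 695, 678, 686, 622 and 659 CPM in EA.hy926 but at 279, 294, 285, 300 and 298 CPM in HMEC-1. The lines were far apart, with a log2FC of 1.20 (SE 0.030, adjusted p = 2.8e-19). Its relative NR2F1 went the other way, at 49.8 ± 2.78 against 98.5 ± 3.04 CPM (log2FC -0.98, SE 0.035, adjusted p = 1.4e-16), just short of the fold threshold, which it passed without HMEC-1 replicate 1, 3 or 5 (lowest value -1.01) and when scaled by library totals alone (-1.12) or not filtered. The ratio of NR2F2 to NR2F1 per exon length was 9.09 ± 0.486 in EA.hy926 but 2.00 ± 0.0571 in HMEC-1 (SD, n = 5). NR2F6 had a log2FC of 0.07 (adjusted p = 0.063), which turned to -0.07 with library totals.

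PROX1, a homeobox gene (chr1:213983181-214041510, plus strand), had 454, 359, 353, 363 and 332 counts in EA.hy926 but 3, 1, 1, 0 and 1 counts in HMEC-1. Its level in EA.hy926 was 10.3 ± 1.31 CPM (adjusted p = 7.3e-19). The sums of 1861 and 6 counts make a ratio of 345, with an exact 95% interval of 158 to 941. With HMEC-1 set to the highest CPM that 3 counts make in any of its libraries, the ratio is 121. PROX1 was thus at the floor in HMEC-1 and low in EA.hy926, where it was the last but TAL1 of the 10 factors per exon length.

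A list of 13 genes held NR2F2, PROX1, their relatives NR2F1, NR2F6 and PROX2, and genes of lymphatic endothelium. It did not run in a common direction. Of the 13 listed, 11 were tested, with 5 called higher and 3 lower in EA.hy926. Without NR2F2 and PROX1, 3 were higher and 3 lower. The share called was 72.7%, or 66.7% without NR2F2 and PROX1, beside 35.5% of all genes tested. NR2F1 and NR2F6, which were not called, count in both shares. PDPN, the podoplanin gene that PROX1 is known to induce, had no count in EA.hy926 but 2935 to 3685 counts in HMEC-1, at least 919-fold lower against 3 counts per library. FLT4, the VEGF-C receptor gene, had 0 to 2 counts in EA.hy926 but 352 to 478 in HMEC-1 (ratio 891, exact 95% interval 246 to 7362). ITGA9, an integrin chain of lymphatic valves, was lower as well, with 0 to 2 against 58 to 102 counts.

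LYVE1, a hyaluronan receptor, was higher in EA.hy926 at 2.45 ± 0.652 against 0.139 ± 0.0641 CPM (log2FC 4.15, SE 0.28, adjusted p = 1.1e-11), and RELN was higher at 34 to 69 against 0 to 3 counts. NRP2, the co-receptor of FLT4, was higher at 218 ± 15.7 against 80.4 ± 2.54 CPM (log2FC 1.44), and VEGFC, the ligand, had a log2FC of 0.60. PROX2, the relative of PROX1, had at most 5 counts in a library and was not tested.

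RPKM values, the CPM of a gene divided by its exon length in kilobases, place the factors within each line. In EA.hy926 the order was NR2F2 at 103 ± 4.45 RPKM, KLF2 at 90.5 ± 2.19, ERG at 29.6 ± 0.504, ETS1 at 25.8 ± 1.14, FLI1 at 23.1 ± 0.473, SOX18 at 18.4 ± 1.52, GATA2 at 9.78 ± 0.417, SOX17 at 2.11 ± 0.175 and PROX1 at 1.16 ± 0.147 (SD, n = 5), with TAL1 at the floor. No neighbours in that order overlapped between libraries. In HMEC-1 the order was KLF2 at 45.4 ± 2.21 RPKM, NR2F2 at 45.0 ± 1.39, ETS1 at 28.4 ± 0.663, GATA2 at 20 ± 0.389, FLI1 at 16.0 ± 0.519, ERG at 14.7 ± 0.342, SOX17 at 8.90 ± 0.346, TAL1 at 8.56 ± 0.396 and SOX18 at 5.87 ± 0.371, with PROX1 at the floor. There KLF2 and NR2F2, FLI1 and ERG, and SOX17 and TAL1 overlapped between libraries and were not ordered beyond their spread. These orders rest on the merged length of all annotated exons and move without it. In CPM, PROX1 (10.3) was above SOX17 (4.96) in EA.hy926. In HMEC-1, NR2F2 (291 CPM) and ETS1 (203 CPM) were above KLF2 (128 CPM). Among the 13025 protein-coding genes tested, NR2F2 was in the top 2.49% of levels in EA.hy926 but 6.13% in HMEC-1, and KLF2 in the top 2.91% and 6.07%.

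**Figure D3:**
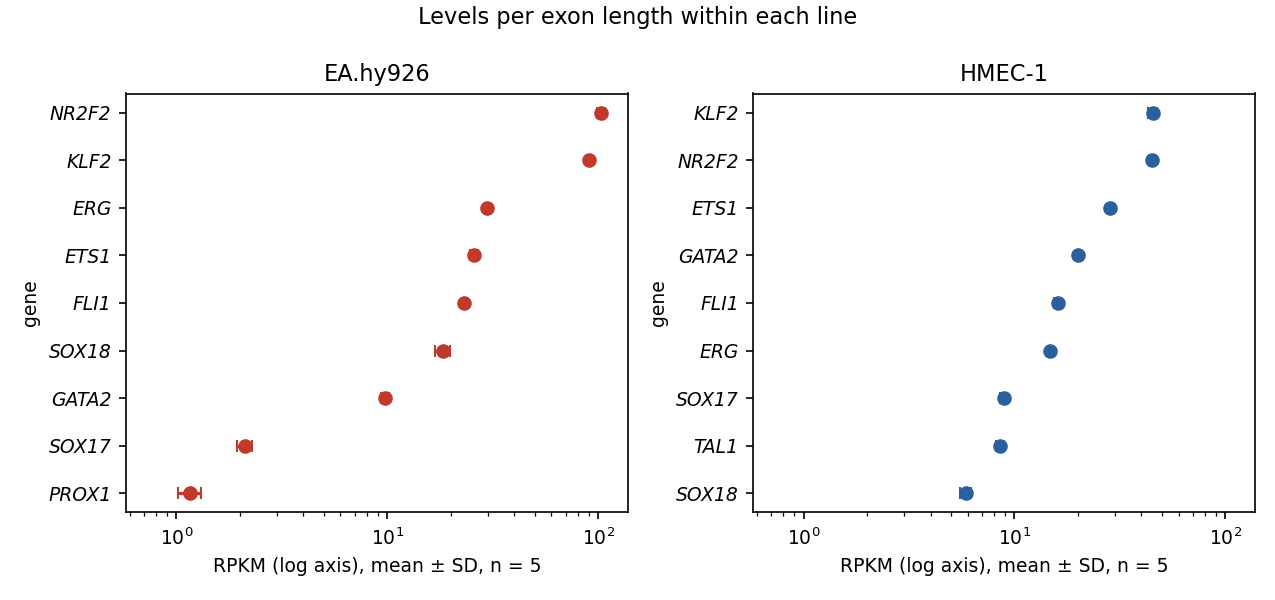
Levels per exon length (RPKM, log axis, mean ± SD of 5 libraries) of the factors with more than 3 counts in a library, sorted within EA.hy926 (left) and HMEC-1 (right). NR2F2 and KLF2 lead in both lines, and PROX1 is the lowest of those shown in EA.hy926 at 1.16 RPKM and SOX18 in HMEC-1 at 5.87 RPKM.

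The families to which the factors belong give the setting of these values. Of the genes tested, 26.3% of the ETS, 88.9% of the SOX, 100% of the GATA and 38.5% of the KLF family were called. Among all genes tested the share was 35.5%. Of 28 ETS genes 19 were tested, with 4 called higher and 1 lower in EA.hy926. ETV1 was at 53.4 ± 2.32 CPM in EA.hy926 but 0.111 ± 0.0999 CPM in HMEC-1 (log2FC 8.89, SE 0.12, adjusted p = 1.1e-23), and ETV4, another factor of the PEA3 group, had a log2FC of 3.38. ELK3, a partner of serum response factor, was at 329 ± 18.2 against 138 ± 1.77 CPM (log2FC 1.25) and ETV7 was lower, at 0.138 ± 0.0622 against 0.424 ± 0.0942 CPM. ETS2, next to ERG on chromosome 21, had a log2FC of -0.87, below the fold threshold, which it passed by a margin in the third decimal when scaled by library totals alone, and FEV, the closest relative of ERG and FLI1, had at most 1 count in a library.

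Of 19 SOX genes 9 were tested, with 6 called higher and 2 lower in EA.hy926. SOX4 was at 200 ± 15.4 against 44.1 ± 1.00 CPM (log2FC 2.18) and SOX8 at 3.33 ± 0.177 against 0.248 ± 0.117 CPM (log2FC 3.73). SOX9 had no count in EA.hy926 but 40 to 60 counts in HMEC-1, at least 14.2-fold lower against 3 counts per library. Of 6 GATA genes 3 were tested and all were called. GATA6 was at 11.8 ± 0.475 against 0.624 ± 0.181 CPM (log2FC 4.24, SE 0.12, adjusted p = 1.0e-18) and GATA3 at 0.834 ± 0.155 against 0.224 ± 0.0820 CPM (log2FC 1.91), so both were higher in EA.hy926, where GATA2 was lower. GATA1, GATA4 and GATA5 had at most 1 count in a library.

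Of 18 KLF genes 17 were in the counts used and 13 were tested, with 1 called higher and 4 lower in EA.hy926. The higher gene was KLF12, at 30.4 ± 2.04 against 0.428 ± 0.158 CPM (log2FC 6.14). KLF9 was at 10.3 ± 0.642 against 127 ± 6.03 CPM (log2FC -3.63, SE 0.044, adjusted p = 8.5e-25) and KLF5 at 0.199 ± 0.0805 against 1.94 ± 0.308 CPM (log2FC -3.26). KLF15 had no count in EA.hy926 but 12 to 21 counts in HMEC-1. KLF9 and KLF15 are known to respond to glucocorticoids, and only the HMEC-1 medium held hydrocortisone, whose part in these values cannot be told apart from that of the line.

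**Figure D4:**
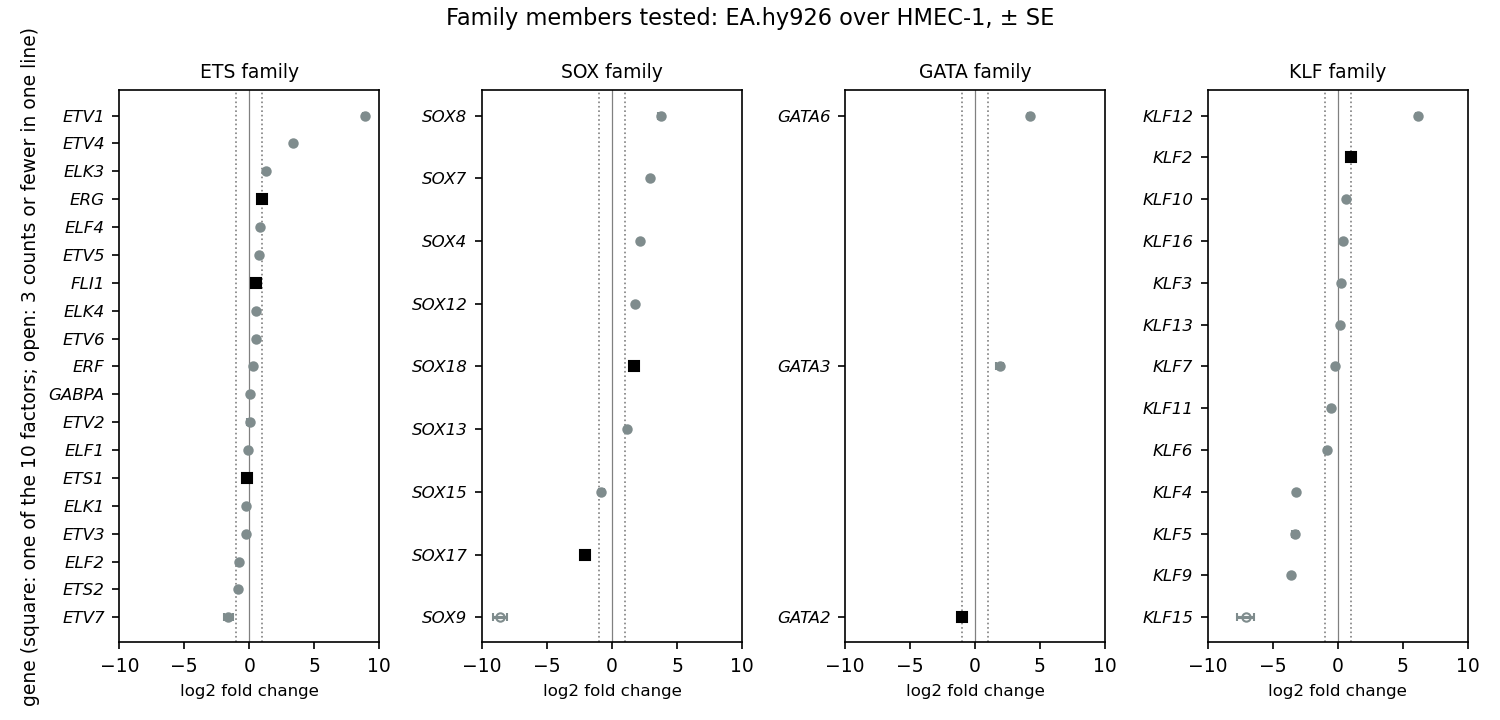
Log2 fold change (EA.hy926 over HMEC-1, ± SE, edgeR) of every tested gene of the ETS, SOX, GATA and KLF families. Black squares are the factors of the report that belong to these families, grey circles are relatives, and dotted lines mark the fold threshold of 1. TAL1, NR2F2 and PROX1 are in none of the 4 families and are not shown. Open symbols have 3 counts or fewer in every library of a line (SOX9 and KLF15), where the fitted value depends on the prior count, and ETV1 has the highest value at 8.89.

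Of 28 other transcription factors of endothelium all were tested and 18 called (64.3%, beside 35.5% of all genes tested), 13 higher and 5 lower in EA.hy926. FOXF1, a forkhead gene of lung vessels, was at 5.67 ± 0.472 against 0.257 ± 0.0708 CPM (log2FC 4.46, SE 0.15, adjusted p = 5.8e-17). TCF15, a basic helix-loop-helix gene, had no count in EA.hy926 but 25 to 45 counts in HMEC-1, and HEY2, an arterial Notch target, had 0 to 1 and 34 to 43 counts.

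Genes that the factors are known to bind were counted by factor, on lists that share members. The share called among all genes tested was 35.5%. Of 12 ERG and FLI1 target genes all were tested and 9 called, 8 higher and 1 lower in EA.hy926. The junction gene ESAM was at 235 ± 8.95 against 6.04 ± 0.309 CPM (log2FC 5.28, SE 0.040, adjusted p = 8.6e-28) and ICAM2 at a log2FC of 3.54 with 26.8% of its exonic bases covered by other genes. CLDN5, the claudin of endothelial tight junctions, was the gene lower in EA.hy926, at 0.0724 ± 0.0563 against 1.45 ± 0.199 CPM (log2FC -4.27, SE 0.33, adjusted p = 8.7e-11). It was low in both lines.

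Of 5 SOXF target genes all were tested and 4 called, with PROX1, CDH5 (log2FC 1.52) and the Notch ligand gene DLL4 (log2FC 1.26, SE 0.14, adjusted p = 4.2e-08) higher in EA.hy926 and CLDN5 lower. Of 5 GATA2 and TAL1 target genes 4 were tested and all 4 were called, with EDN1, CDH5 and ANGPT2 (log2FC 1.64) higher in EA.hy926. EMCN, the endomucin gene, was lower in EA.hy926 as TAL1 and GATA2 were, at 0 to 2 against 678 to 844 counts (ratio 1660, exact 95% interval 459 to 13710). VCAM1, with 0 to 1 counts in EA.hy926 but 4 to 23 in HMEC-1, did not pass the filter.

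Several factor genes share their locus with an RNA gene on the opposite strand. No strand-marking step is described for the libraries and how the counting treated strand is not given in the sources used here, so reads in shared exonic bases cannot be assigned to either gene. The antisense genes SENCR and ENSG00000226252 lie wholly within the spans of FLI1 and TAL1. Reads from unspliced RNA of these factors could therefore fall on their unshared exons as well. SENCR, a long non-coding RNA gene with 162 bases shared with FLI1, was at 18.0 ± 1.99 CPM in EA.hy926 but 5.84 ± 0.856 CPM in HMEC-1 (log2FC 1.62), in the direction of FLI1 but farther, and the ratio of FLI1 to SENCR per exon length was 2.17 ± 0.226 and 4.67 ± 0.720 (SD, n = 5). GATA2-AS1 (78 shared bases) was at 5.07 ± 0.286 against 22.5 ± 0.430 CPM (log2FC -2.15), in the direction of GATA2 and also farther. NR2F2-AS1, with no shared base, was at 5.31 ± 0.497 against 1.79 ± 0.467 CPM (log2FC 1.57), in the direction of NR2F2.

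ENSG00000226252, antisense to TAL1 with 845 shared bases, had no count in EA.hy926 but 25 to 41 counts in HMEC-1, so it was at the floor where TAL1 was. PROX1-AS1 (163 shared bases) had 6 to 10 counts in EA.hy926 but 0 to 1 in HMEC-1 and was not tested. Exons of other genes cover 14.8% of the exonic bases of TAL1 and at most 4.10% of those of any of the other factors. SOX18 shares no exonic base, and TCEA2, which starts 197 bases from it on the opposite strand, was at 54.9 ± 2.14 against 35.1 ± 1.5 CPM (log2FC 0.64). KLF2-DT, the divergent gene of KLF2, had at most 3 counts in a library. ENSG00000275322, which starts 2690 bases beyond NR2F2, had a log2FC of 0.00, and the remaining annotated neighbours in the counts were not tested and had at most 32 counts in a library.

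**Figure D5:**
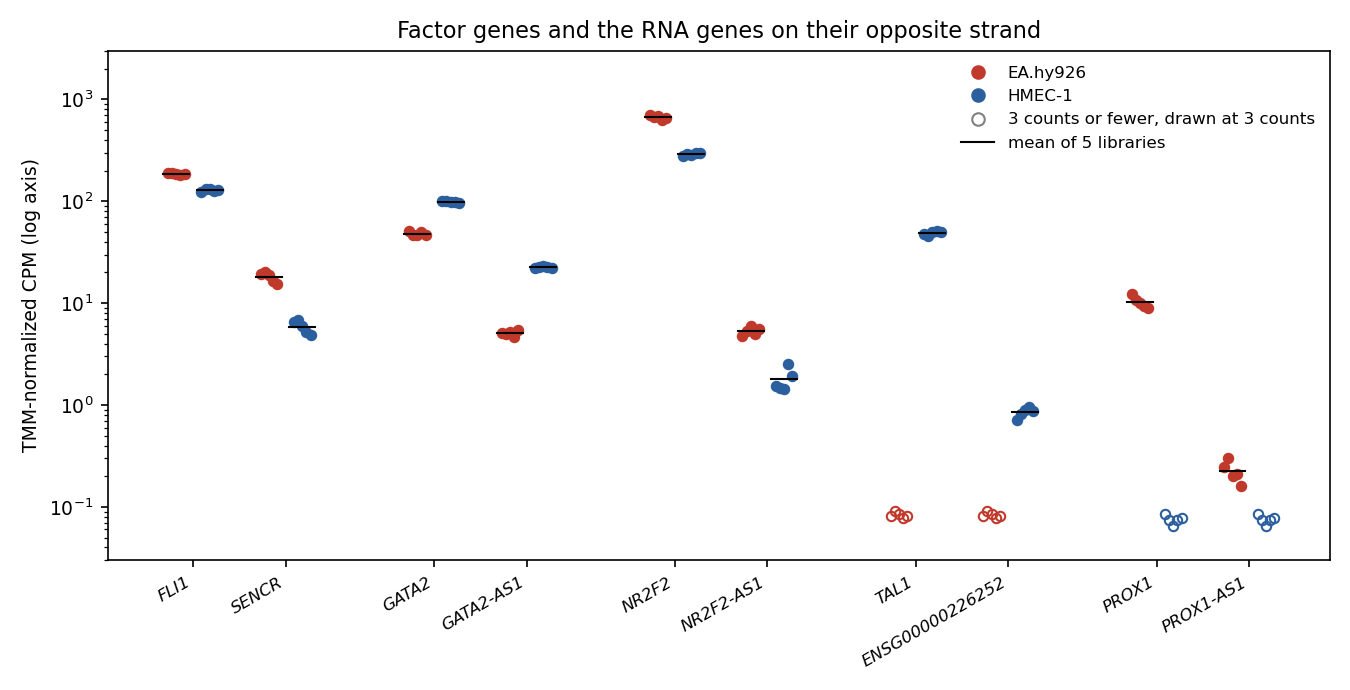
Level of 5 factor genes and of the RNA gene on the opposite strand of each, per library, in CPM scaled by TMM factors on a log axis, with means as lines and open points at 3 counts for libraries with 3 counts or fewer. In each of the 5 pairs the factor and its antisense gene are higher in the same line, and those of TAL1 and PROX1 are at the floor in the other line. With strand unknown, reads of a factor cannot be set apart from those of its antisense gene where the genes overlap.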

How the data were processed

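Raw read counts per gene were used as the authors deposited them, for 5 EA.hy926 and 5 HMEC-1 libraries, with line and replicate number taken from the labels. Per the labels and the paper, mRNA was selected with oligo(dT) beads, sequenced on an Illumina NovaSeq instrument and aligned to GRCh38 with HISAT2. The paper names HTSeq for counting and the submitters' processing notes featureCounts. The strand setting and annotation release are not given in the sources used here.

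Identifiers were matched to GENCODE 44 (56434 of 60448 genes), which gave symbols, coordinates, exon lengths and, with bedtools 2.31.1, the share of exonic bases that other genes cover. Genes were filtered with filterByExpr (minimum count 10, total 15), scaled by TMM and tested between the lines by glmQLFTest after glmQLFit (edgeR 4.0.16 under R 4.3.3), with no covariate. Benjamini-Hochberg adjustment covered all 16310 genes tested, with limits of 0.05 and a log2FC of 1, which the paper's limma analysis also used. A model on counts was chosen because the deposited values are counts. The fit was tested on simulated data. Ratios with 1 to 3 counts at most per library carry an exact conditional binomial interval (95%). Total counts of 33391640 to 43877224 per library set the floor of 3 counts.

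The members and lists were chosen with earlier results of these data known. Genes named were all 10 members, their closest relatives, TAL1 partners, annotated genes within 10 kb, and up to 3 genes with the highest and 3 with the lowest log2FC among those called in each other list. An ERG and FLI1 target that this rule names is not reported here, and a few others are given within counts only. STIL, DCN, LUM, KRT7, CDH1, NKX2-1, SFTPA1, NRP2, VEGFC, THBD, VCAM1, the MEF2 genes and the kinases upstream of KLF2 were named after their values were seen. Libraries of a line differed by more than sampling noise (chi-square per degree of freedom 3.08 to 7.63 between pairs), so none is a copy of another. That spread cannot show separate cultures, so counting each library as a replicate rests on the paper's statement of independent biological replicates. Alternatives were DESeq2 1.42.0, limma-voom (limma 3.58.1), glmTreat, RLE factors, library totals, no filter, at least 10 counts in every library, a replicate block and leaving out each library.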

Additional observations from a re-analysis of the deposited data

Results flagged for a closer look

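Of 138 groups of 5 libraries of named genes, 6 held a library far from the others (gap over range above 0.71), about the 1 in 20 that chance gives, and none concerned the 10 factors. ERG in HMEC-1 replicate 2, at 116 CPM against 109 to 111 CPM in the others, lay just under that limit at 0.709. Groups at the floor, TAL1 in EA.hy926 and PROX1 in HMEC-1 among them, were not examined. HHEX was at 24.0 CPM in HMEC-1 replicate 5, apart from the other HMEC-1 libraries. S1PR1 was at 200 CPM in EA.hy926 replicate 1, and its call was lost without that library. ESAM was at 250 CPM in the same library. CLDN7 was at 0.325 CPM in EA.hy926 replicate 1. CLDN5 was at 1.11 CPM in HMEC-1 replicate 3. EPCAM was at 0.539 CPM in HMEC-1 replicate 2.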

How the results depend on the processing

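No member changed direction under any of the alternatives run, and no call on a named gene was reversed. Of the 10 members 7 were called with edgeR, DESeq2, limma-voom and RLE factors, 5 with glmTreat (without ERG and GATA2), 6 with library totals, 6 without the filter and 6 to 8 when a library was left out. TAL1 and PROX1 were removed by the filter of at least 10 counts in every library, which kept 8 members and called 6, KLF2 among them. Library totals moved the median log2FC of all genes by -0.13 and ERG to 0.87. Over the genes named by rule, 1306 values kept their call, 19 of 4 genes lost it (ERG, GATA2, S1PR1 and EDN1) and 12 of 3 genes gained it (KLF2, NR2F1 and ETS2). THBD, named after its values were seen, was not among these genes.

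Without the filter 9312 genes passed both thresholds, with 8 of the KLF family, 10 epithelial, 4 lung and endoderm and 3 haematopoietic genes. Under the filter of 10 counts per library 3255 passed, with 3 of the ETS family, 3 of the KLF family, 2 of the COUP-TF and lymphatic genes, 2 SOXF targets, 2 GATA2 and TAL1 targets, 3 epithelial, 0 lung and endoderm, 3 fibroblast and mural and 0 haematopoietic genes. Fewer genes are tested under that filter. On the list of KLF2 upstream and target genes with KLF4, 6 were called. This fell to 3 with glmTreat, 3 with library totals and 3 to 6 when a library was left out (3 without HMEC-1 replicate 5). With glmTreat, with library totals and without HMEC-1 replicate 5, THBD, S1PR1 and EDN1 lost their call. The haematopoietic genes numbered 1 to 2 when a library was left out. The cause was not tested.

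The replicate numbers are the same in both lines but did not pair the libraries, since same-numbered libraries correlated at -0.02, 0.00, 0.04, 0.02 and -0.01. With a replicate block 5786 genes were called against 5784, and 7 members.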
